A study of Mus musculus with 24 samples.

Results

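The early course of untreated infarcts was followed by comparing 4 arrays of vehicle infarcts at 48 h of reperfusion with 4 arrays of vehicle infarcts at 24 h, 8 of the 24 arrays of the series. The arrays were chosen by their sample titles alone, and all genes measured on them are described. Male C57BL6/J mice underwent 45 min of ischemia by occlusion of the left anterior descending artery, the vessel that feeds the front wall of the left ventricle, and the vessel was then reopened. Mice of both groups carried a pump under the skin that delivered vehicle, which the labels name as PBS with BSA. The infarcted area at risk in the anterior wall was excised and its total RNA was hybridised to one-colour mouse arrays, 1 sample to an array. The other 16 arrays hold vehicle infarcts at 168 h of reperfusion and infarcts treated with insulin-like growth factor 1 (IGF1). The IGF1 infarcts were taken at 24, 48 and 168 h. IGF1 was given as a bolus of 40 ng per g and by pump at 1 ug per g per day. A pump time of 3 days is given for both treatments. The design text of the series calls the control mice sham-operated, whereas the label of every vehicle sample names 45 min of ischemia, and the sample labels were followed. The labels give no age and no identity of the animals, and each p-value therefore reflects only how these samples varied, which may be technical.

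Healing of an infarct begins with death of cardiomyocytes and an influx of neutrophils, followed by monocytes that become macrophages and clear the dead tissue. Fibroblasts and vessel cells then divide, and fibroblasts lay down the collagen scar that replaces lost muscle. Each step has marker genes: S100a8 for neutrophils, Gpnmb for phagocytes loaded with cell debris, Mki67 for dividing cells and Col1a1 for cells making scar collagen.

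Levels are given as log2 signal of a gene's probe minus the 75th percentile of its array, so that a level of 0 equals that percentile, and differences are 48 h minus 24 h. Genes were called by limma with a Benjamini-Hochberg adjusted p under 0.05 over all 15875 genes tested. The spread behind each p-value was estimated over all 24 arrays, those at 168 h among them, unless another fit is named. The words "higher", "lower", "rose" and "fell" refer to 48 h relative to 24 h. Between 24 and 48 h 3611 genes changed (22.7% of those tested), 1845 of them upwards (11.6%) and 1766 downwards (11.1%). Changes of more than 2-fold ran mostly upwards, with 542 genes higher and 134 lower. The 2 groups of 4 arrays did not overlap in 1820 genes that lay higher and 1921 that lay lower at 48 h (23.6% of genes together). The median log2 difference over all genes was -0.017, and the same value is the background for the medians of gene lists below. The shares of 11.6% higher and 11.1% lower are the background for the counts of called list members. The tissue was a mixture of cells, and fewer cells of a type cannot be told apart from less RNA of a gene per cell.

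One array of the 24 h group, replicate 3, stood apart from the other 3. On the first principal component of the 8 arrays (43.9% of variance) it lay at -50.1, the other 24 h arrays between -23.5 and -21.2, and the 48 h arrays between 26.8 and 32.7. It still correlated with the other 24 h arrays across genes at r of 0.988 to 0.990. On it the mean log2 level of neutrophil genes was the highest of the 24 h group, at 1.61 against 1.34, 0.93 and 1.19, and that of contractile cardiomyocyte genes the lowest, at 5.82 against 5.92 to 6.22 on the others. The part of these in the results was not tested. Without it 2267 genes were called, 1197 higher and 1070 lower, and 2225 of them were also called with it, all in the same direction. List counts that moved by more than 1.5 times without this array, and named genes whose call it decided, are given with and without it. The arrays lay on 4 slides, 3 of which held both groups, and 98.7% of the called genes had the same sign within all 3, against 57.2% of all genes. This outcome was fixed in advance for the 2888 called genes whose groups did not overlap. The called genes were chosen on these same arrays. Between 52.8 and 58.9% of the spots of these 8 arrays were well above background.

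**Figure D1:**
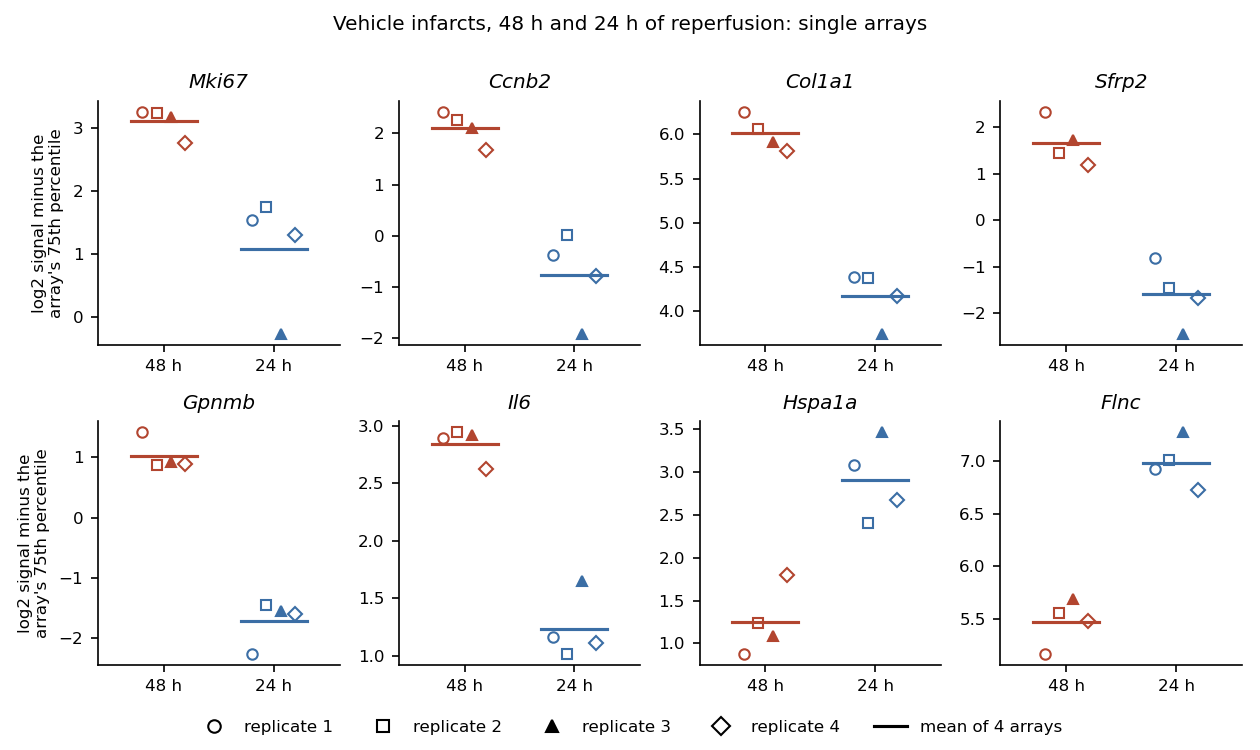
Levels of 8 genes on single arrays (log2 signal minus the array's 75th percentile, vertical axes) at 48 h (left, red) and 24 h (right, blue). Marker shapes stand for replicates 1 to 4, filled triangles for replicate 3, and bars for means of 4 arrays. The 2 groups do not overlap in any of these 8 genes, and 24 h replicate 3 lies farthest from the 48 h arrays in Mki67, Ccnb2, Col1a1, Sfrp2, Hspa1a and Flnc, but nearest to them in Il6.

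Genes of cell division rose together. All 25 tested genes of a mitosis list were higher at 48 h and 0 were lower, against 11.6% of all genes higher, and their median log2 difference was 1.92. The mean log2 level of the 25 genes was 1.07, 1.06, 0.94 and 0.63 on the 48 h arrays, against -0.51, -0.36, -2.20 and -0.92 on the 24 h arrays. The groups did not overlap, and 24 h replicate 3 lay far below the other 3. Without it all 25 genes were still called, with a median log2 difference of 1.52. Within the 3 shared slides the mean of the list differed by 1.43, 3.14 and 1.55 on the log2 scale, the highest value on the slide that held 24 h replicate 3.

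Mki67, whose protein coats the chromosomes of dividing cells, had log2 levels of 3.26, 3.24, 3.17 and 2.76 at 48 h, against 1.54, 1.75, -0.26 and 1.30 at 24 h. Every 48 h array lay above every 24 h array, and the gene was 4.07-fold higher at 48 h (log2 difference 2.03, SE 0.29, adjusted p = 9.62e-05). Ccnb2, a cyclin that drives entry into mitosis, had log2 levels of 2.41, 2.25, 2.11 and 1.67 at 48 h, against -0.37, 0.0096, -1.91 and -0.79 at 24 h. It too was separated on all arrays and was 7.36-fold higher at 48 h (log2 difference 2.88, SE 0.29, adjusted p = 4.43e-06), the gene of the list with the smallest p-value. Its partner kinase Cdk1 was 2.92-fold higher (adjusted p = 3.17e-04) and its relative Ccnb1 was 6.56-fold higher (adjusted p = 1.05e-04). Among regulators of the later steps, the mitotic kinase Plk1 was 5.38-fold higher (adjusted p = 1.46e-04). Cdc20 and Ube2c, which mark cyclins for destruction at the end of metaphase, were 4.47-fold higher (adjusted p = 1.28e-05) and 5.20-fold higher (adjusted p = 8.59e-05). Foxm1, a transcription factor of mitotic genes, was 3.13-fold higher (adjusted p = 2.35e-04). The list's other members included Cenpe, a motor protein of the centromere that was 4.80-fold higher (adjusted p = 2.84e-05), and Birc5, the inhibitor known as survivin, which was 3.91-fold higher (adjusted p = 2.43e-05). Top2a, a topoisomerase that untangles replicated chromosomes, was 2.73-fold higher (adjusted p = 5.54e-04), and the checkpoint protein gene Mad2l1 showed the smallest difference of the 25 at 2.02-fold higher (adjusted p = 2.46e-05). Outside the list, the phosphatase gene Cdkn3 was 8.11-fold higher (adjusted p = 3.59e-05). The pseudogene copy Ccnb1-ps was 8.97-fold higher (adjusted p = 2.20e-05), and its probe may share signal with Ccnb1. Without 24 h replicate 3 the log2 difference of Ccnb1 was 2.09, against 2.71 with it. That of Cdkn3 was 2.41 against 3.02, and that of Ccnb1-ps was 2.57 against 3.17.

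The promoters of these genes are shown because the mitosis genes moved together, and because 2 short elements, the CCAAT box and the TTTGAA core of the cell cycle homology region, are known from other work in promoters of late cell cycle genes. RefSeq promoters (build GRCm38.p6), from 250 bases before to 50 bases after the start of the gene, were found for 20 of the 25 mitosis genes. CCAAT, searched on both strands and so also as ATTGG, was held by 17 of them (85%), against 42.2% of the 12551 tested genes with a promoter. TTTGAA, also searched as TTCAAA, was held by 14 (70%), against 15.1%. Both were held by 14 (70%), against 6.08% of all. The motifs do not overlap in their letters. A match is a description of the letters, and no binding was measured. Below are the promoters of Ccnb2 (chr9:70421505-70421804, - strand), Cdc20 (chr4:118437294-118437593, - strand), Plk1 (chr7:122159185-122159484, + strand) and Cdk1 (chr10:69352863-69353162, - strand), each written 5′ to 3′ on the strand of the gene with these motifs in capitals. The promoter of Pcna (chr2:132253131-132253430, - strand), a replication gene that was not called, is set beside them and holds CCAAT without TTTGAA. The promoter of Mcm2, also not called, holds both, and that of Ccnb1 holds CCAAT without TTTGAA.
Ccnb2: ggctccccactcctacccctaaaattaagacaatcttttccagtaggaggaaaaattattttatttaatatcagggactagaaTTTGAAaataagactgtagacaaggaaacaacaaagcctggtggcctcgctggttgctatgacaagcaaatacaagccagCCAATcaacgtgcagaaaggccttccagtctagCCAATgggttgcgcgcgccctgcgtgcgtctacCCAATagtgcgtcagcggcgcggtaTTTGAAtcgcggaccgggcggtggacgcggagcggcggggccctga
Cdc20: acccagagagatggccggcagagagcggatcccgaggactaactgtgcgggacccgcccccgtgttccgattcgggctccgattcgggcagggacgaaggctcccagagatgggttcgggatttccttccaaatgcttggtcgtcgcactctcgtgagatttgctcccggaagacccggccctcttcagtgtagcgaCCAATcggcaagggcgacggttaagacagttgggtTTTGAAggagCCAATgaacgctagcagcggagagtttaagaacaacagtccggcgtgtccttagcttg
Plk1: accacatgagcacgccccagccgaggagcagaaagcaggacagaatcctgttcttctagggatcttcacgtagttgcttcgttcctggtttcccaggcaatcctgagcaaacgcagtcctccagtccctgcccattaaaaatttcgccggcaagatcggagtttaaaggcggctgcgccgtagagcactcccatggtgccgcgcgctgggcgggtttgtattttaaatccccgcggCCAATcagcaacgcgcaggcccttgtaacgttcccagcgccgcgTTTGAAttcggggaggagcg
Cdk1: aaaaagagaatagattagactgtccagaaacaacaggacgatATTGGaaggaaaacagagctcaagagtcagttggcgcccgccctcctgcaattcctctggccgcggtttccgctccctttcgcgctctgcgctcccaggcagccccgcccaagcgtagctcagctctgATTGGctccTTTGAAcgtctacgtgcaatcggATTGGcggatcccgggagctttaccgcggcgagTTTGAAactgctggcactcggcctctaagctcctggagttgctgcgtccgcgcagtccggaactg
Pcna: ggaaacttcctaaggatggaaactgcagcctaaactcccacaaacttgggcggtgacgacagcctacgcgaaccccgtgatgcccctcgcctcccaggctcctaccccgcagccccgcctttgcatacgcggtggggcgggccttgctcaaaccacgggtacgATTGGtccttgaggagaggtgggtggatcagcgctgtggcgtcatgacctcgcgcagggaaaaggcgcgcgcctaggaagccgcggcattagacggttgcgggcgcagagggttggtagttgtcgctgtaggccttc

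Some genes of DNA replication rose as well. Of 23 tested, 9 rose and 0 fell, with a median log2 difference of 0.25 and differences between 0.095 and 0.99. The mean log2 level of the list overlapped between groups, at 1.19 on 48 h replicate 4 and 1.25 on 24 h replicate 1. Those that rose included enzymes that supply nucleotides. Rrm2 and Rrm1, the subunits of ribonucleotide reductase, were 1.98-fold higher (adjusted p = 0.0019) and 1.66-fold higher (adjusted p = 5.30e-04), and the thymidine kinase gene Tk1 was 1.98-fold higher (adjusted p = 0.00526). In the fit to 8 arrays Tk1 (adjusted p = 0.0678) and Gins2 (adjusted p = 0.0618), were not called. Tyms, which makes thymidylate, was 1.64-fold higher (adjusted p = 0.00192). Of the replication machine itself, Gins2, which activates the helicase, was 1.60-fold higher (adjusted p = 0.0085). The helicase subunit gene Mcm2 and the clamp gene Pcna were not called: Mcm2 had a log2 difference of 0.14 (adjusted p = 0.517) and Pcna one of 0.10 (adjusted p = 0.532). Without 24 h replicate 3, 6 of the 23 were called, and a fit to these 8 arrays alone called 4. In the promoter windows, CCAAT was held by 12 of 19 replication genes (63.2%) and TTTGAA by 2 (10.5%).

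Ribosome production moved the other way. Of 19 tested genes for ribosome assembly and the growth regulator Myc, 16 fell and 0 rose, against 11.1% of all genes lower, with a median log2 difference of -0.44. The mean log2 level of the list was 2.19, 2.31, 2.22 and 2.13 on the 48 h arrays, against 2.63, 2.66, 2.85 and 2.58 on the 24 h arrays, without overlap. Polr1b, a subunit of the polymerase that transcribes ribosomal RNA, was 1.79-fold lower at 48 h (log2 difference -0.84, SE 0.14, adjusted p = 3.12e-04). Gnl3, a nucleolar GTPase, was 1.69-fold lower (adjusted p = 0.00231), and the processing factors Rrp9 and Bop1 were 1.65-fold lower (adjusted p = 0.00118) and 1.49-fold lower (adjusted p = 1.19e-04). Myc had log2 levels of 0.49, 0.55, 0.37 and 0.31 at 48 h, against 1.00, 0.77, 1.31 and 0.87 at 24 h, separated between groups, and was 1.47-fold lower (adjusted p = 0.0104). With 24 h replicate 3 left out, only 8 of the 19 were called, Myc was not among them (log2 difference -0.45, adjusted p = 0.052), and the median log2 difference was -0.37.

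**Figure D2:**
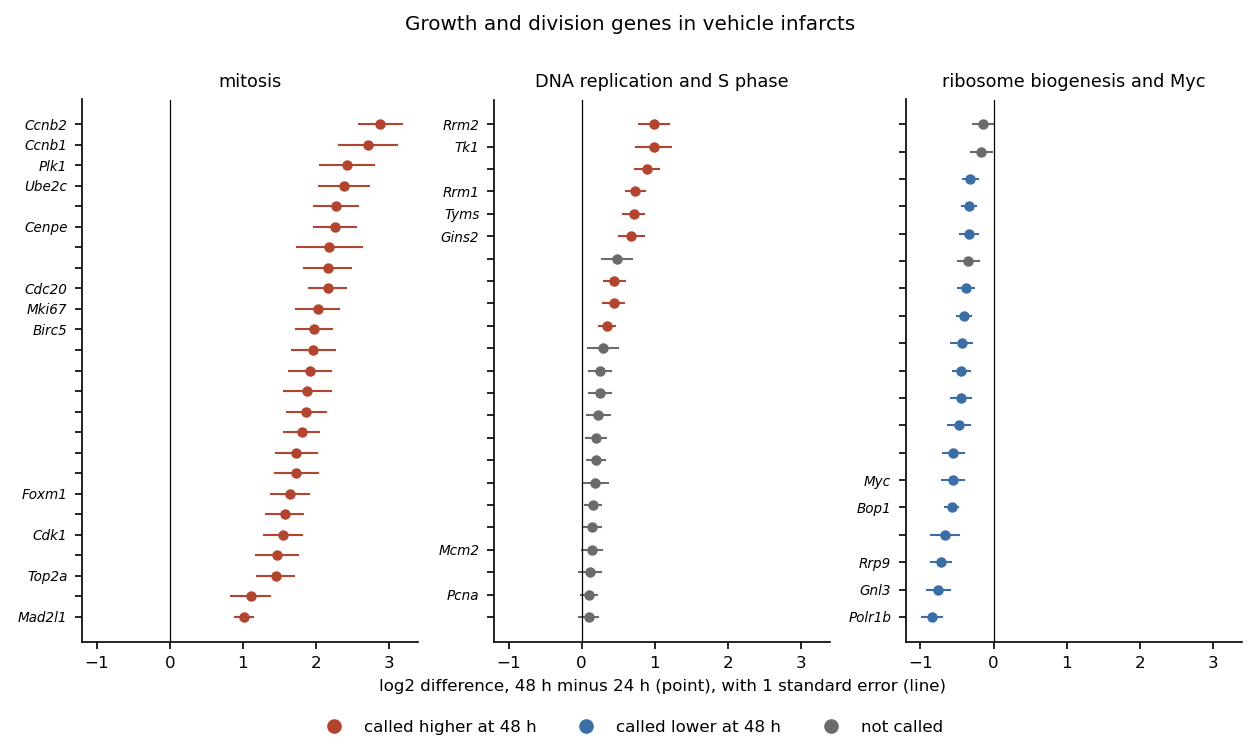
Log2 differences (48 h minus 24 h, horizontal axes) of all tested genes of 3 lists, with 1 standard error of the limma fit. Red points were called higher at 48 h, blue points lower, grey points not called, and names are given for genes described in the text. All 25 mitosis genes lie above 0, between 1.01 and 2.88, and all 19 ribosome genes lie below it, between -0.84 and -0.14, while the 23 replication genes reach from 0.095 to 0.99.

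Scar collagens rose. Of 20 collagen genes tested, 15 rose and 1 fell, with a median log2 difference of 1.08. Col1a1, the main chain of scar collagen, had log2 levels of 6.25, 6.06, 5.92 and 5.81 at 48 h, against 4.39, 4.38, 3.75 and 4.17 at 24 h. The groups lay far apart relative to their spread, and Col1a1 was 3.58-fold higher at 48 h (log2 difference 1.84, SE 0.15, adjusted p = 4.12e-07). Col1a2 and Col3a1, the other main fibrillar chains, were 3.03-fold higher (adjusted p = 2.13e-06) and 2.90-fold higher (adjusted p = 4.23e-06). Col5a1, which sets the width of fibrils, was 2.73-fold higher (adjusted p = 2.65e-07), and the fibril-associated Col12a1 was 3.74-fold higher (adjusted p = 4.12e-07). Col8a2, a short-chain collagen, was not well above background on any 24 h array and was at least 3.63-fold higher at 48 h (adjusted p = 4.33e-04). Against them stood Col4a2, a chain of the basement membrane, which was 1.42-fold lower (adjusted p = 0.00746).

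Matricellular proteins and proteoglycans, which tune the matrix around cells, followed the collagens, with 16 of 25 higher and 1 lower (median log2 difference 0.69). Cthrc1, a secreted protein of activated fibroblasts, had log2 levels of 3.16, 2.96, 2.07 and 2.38 at 48 h, against 0.27, 0.009, -0.21 and 0.032 at 24 h. This separation made it 6.17-fold higher at 48 h (log2 difference 2.62, SE 0.23, adjusted p = 8.48e-07). Comp, a protein that brings collagen molecules together, was 6.59-fold higher (adjusted p = 2.78e-04), and Postn, made by activated fibroblasts, was 2.41-fold higher (adjusted p = 6.99e-04). Among small leucine-rich proteoglycans Aspn was 3.15-fold higher (adjusted p = 5.55e-05) and Ogn was 2.40-fold higher (adjusted p = 2.37e-04). The one member that fell was Ccn1, known as a stretch and YAP target, which was 1.54-fold lower (adjusted p = 0.0225), and this call was lost without 24 h replicate 3 (log2 difference -0.56, adjusted p = 0.0761).

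Collagen-processing enzymes were called higher in 13 of 23 cases and lower in 0 (median log2 difference 0.50). Lox and Loxl2, which crosslink collagen, were 3.73-fold higher (adjusted p = 8.00e-06) and 2.57-fold higher (adjusted p = 2.36e-06). P4ha3, a subunit of prolyl hydroxylase, was 4.80-fold higher (adjusted p = 6.41e-06). It was well above background on 1 of 4 arrays at 24 h and on 4 of 4 at 48 h. Bmp1, which cuts the procollagen tail, was 1.67-fold higher (adjusted p = 7.18e-05) and its enhancer Pcolce was 1.80-fold higher (adjusted p = 6.69e-05). Matrix proteases and their inhibitors gave 5 of 24 higher and 0 lower, against 11.6% and 11.1% of all genes (median log2 difference 0.055). Those that rose included Mmp23, a membrane-bound metalloproteinase (2.52-fold higher, adjusted p = 1.39e-04), the inhibitor Timp2 (2.08-fold higher, adjusted p = 1.26e-04) and the aggrecanase Adamts5 (2.18-fold higher, adjusted p = 0.00257). Timp1, another inhibitor, had mean log2 levels of 6.64 ± 0.17 at 48 h and 6.68 ± 0.12 at 24 h and was not called (log2 difference -0.04, adjusted p = 0.894). Mmp12, the macrophage elastase, was not called either (log2 difference 0.64, adjusted p = 0.395).

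Secreted Wnt modulators were among the fibroblast genes that rose, while the contractile gene Acta2 did not pass the test. Of 28 genes of myofibroblast activation and TGF-beta signalling, 10 rose and 2 fell, with a median log2 difference of 0.17. Sfrp2, a secreted Wnt antagonist, had log2 levels of 2.33, 1.44, 1.72 and 1.19 at 48 h, against -0.82, -1.47, -2.44 and -1.67 at 24 h. It was 9.65-fold higher at 48 h (log2 difference 3.27, SE 0.35, adjusted p = 5.50e-06), and its relative Sfrp1 was 5.70-fold higher (adjusted p = 5.01e-05). Dkk3, of another family of secreted Wnt modulators, was 3.98-fold higher (adjusted p = 6.50e-05), and the fibroblast protease Fap was 3.10-fold higher (adjusted p = 4.23e-06). Fstl1, a follistatin-like glycoprotein, was 2.14-fold higher (adjusted p = 3.20e-05), whereas Fstl3, an activin binder, was 1.96-fold lower (adjusted p = 0.00302). The smooth muscle actin gene Acta2 had log2 levels of 5.34, 5.35, 5.46 and 5.51 at 48 h, against 5.52, 5.66, 5.24 and 5.54 at 24 h. These overlapped, and Acta2 was not called (log2 difference -0.075, adjusted p = 0.62). Tagln, another contractile gene, was called at 1.37-fold higher (adjusted p = 0.0489), but the call was lost under 16 of 20 alternatives, among them the one without 24 h replicate 3, and the groups overlapped. Tgfb1 itself was not called (log2 difference 0.056, adjusted p = 0.723). Without 24 h replicate 3, 6 members of the list were called higher and 1 lower. Markers of resting fibroblasts rose in 10 of 16 cases and fell in 0, with a median log2 difference of 0.65. Dpt, which binds decorin, was 2.55-fold higher (adjusted p = 5.96e-05). Mfap5, of the microfibrils, was 1.91-fold higher (adjusted p = 7.22e-04). Clec3b, or tetranectin, was 5.63-fold higher (adjusted p = 1.89e-04), and the scavenger receptor gene Scara5 was 3.88-fold higher (adjusted p = 0.00221).

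**Figure D3:**
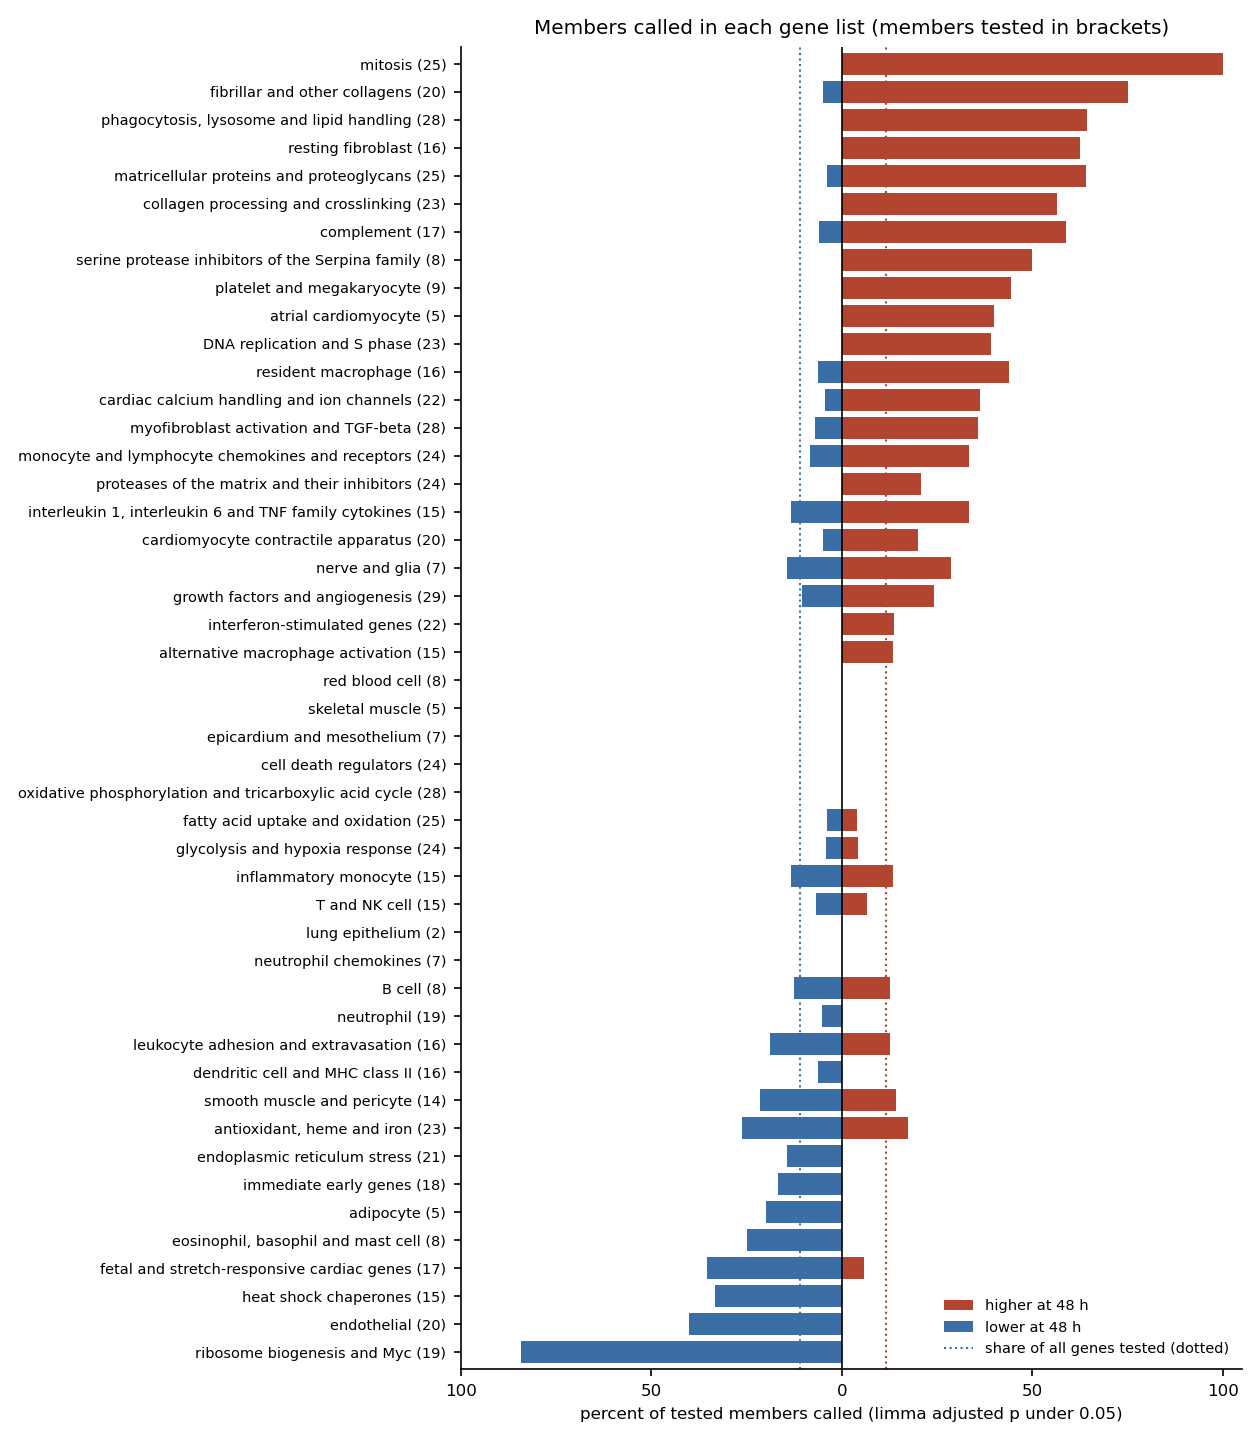
Share of the tested members of 47 gene lists that were called higher (red, to the right) or lower (blue, to the left) at 48 h, in percent. Dotted lines give the shares over all genes tested, 11.6% higher and 11.1% lower. The mitosis list reaches 100% higher at the top, and the ribosome biogenesis list has the longest bar of lower members at the bottom.

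Macrophage genes of debris handling rose. Of 28 genes for phagocytosis, lysosomes and lipid handling, 18 rose and 0 fell, with a median log2 difference of 0.58. The mean log2 level of the list was 3.96, 3.85, 3.74 and 3.67 on the 48 h arrays, against 3.12, 3.17, 3.16 and 3.16 on the 24 h arrays. The 24 h arrays lay within 0.05 of each other and below all 48 h arrays, and 24 h replicate 3 did not stand apart. Gpnmb, a membrane glycoprotein of phagocytes, had log2 levels of 1.42, 0.88, 0.92 and 0.90 at 48 h, against -2.27, -1.45, -1.56 and -1.60 at 24 h. The gene was 6.70-fold higher at 48 h (log2 difference 2.74, SE 0.39, adjusted p = 7.87e-05). Trem2, a receptor for lipids of dying cells, was 2.08-fold higher (adjusted p = 7.89e-04), and Apoe, which carries cholesterol out of macrophages, was 1.90-fold higher (adjusted p = 7.36e-04). Among lysosomal proteases Ctsk was 2.21-fold higher (adjusted p = 2.61e-04), Ctsb 1.59-fold higher (adjusted p = 2.61e-04) and Lgmn 1.51-fold higher (adjusted p = 3.36e-04). Spp1, or osteopontin, which macrophages of infarcts are known to secrete, had overlapping groups and was not called (log2 difference 0.31, adjusted p = 0.68).

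Resident macrophage markers followed, with 7 of 16 higher and 1 lower (median log2 difference 0.58). Their summed signal, in multiples of the 75th percentile, was 90.0 to 100 at 48 h and 49.9 to 62.1 at 24 h. Stab1, a scavenger receptor, had log2 levels of 4.46, 4.47, 4.51 and 4.17 at 48 h, against 3.30, 3.67, 3.22 and 3.63 at 24 h and was 1.93-fold higher (adjusted p = 7.49e-06). Cbr2, a carbonyl reductase gene, was 2.32-fold higher (adjusted p = 5.44e-04). Folr2, a folate receptor of tissue macrophages, was 1.95-fold higher (adjusted p = 0.00431), and the mannose receptor gene Mrc1 was 1.57-fold higher (adjusted p = 0.00231). Adgre1, which encodes the F4/80 antigen, was 1.80-fold higher (adjusted p = 8.12e-04), and Selenop, which carries selenium, was 1.78-fold higher (adjusted p = 2.35e-04). A fall was seen for the chemokine gene Ccl24 (2.86-fold lower, adjusted p = 0.0122), a call that was lost without 24 h replicate 3 (log2 difference -1.34, adjusted p = 0.0503). Of 15 genes of alternative macrophage activation 2 rose and 0 fell, against 11.6% and 11.1% of all genes. Arg1, the arginase of that state, had log2 levels of 3.53, 3.02, 3.14 and 2.76 at 48 h, against 4.30, 4.06, 4.38 and 3.97 at 24 h. The 48 h arrays all lay below the 24 h arrays. The gene was not called in the fit to all 24 arrays (log2 difference -1.07, SE 0.95, adjusted p = 0.455), while a fit to these 8 arrays alone gave adjusted p = 0.00824. The SD of Arg1 was 0.32 at 48 h and 0.20 at 24 h, against 3.33 in vehicle infarcts at 168 h, which enter the larger fit.

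Complement genes rose in 10 of 17 cases and fell in 1, against 11.6% and 11.1% of all genes (median log2 difference 0.62). C1qc and C1qb, chains of the recognition molecule C1q made by macrophages, were 1.82-fold higher (adjusted p = 4.14e-04) and 1.73-fold higher (adjusted p = 0.00156). The protease C1ra was 1.74-fold higher (adjusted p = 4.52e-04) and C4b, which it activates through its partner, was 1.80-fold higher (adjusted p = 0.00609). Serping1, the inhibitor of these proteases, was 1.88-fold higher (adjusted p = 0.00406). Itgam, the chain of complement receptor 3 found on neutrophils and monocytes, was 1.37-fold lower (adjusted p = 0.00922). Without 24 h replicate 3, 6 members were called higher and 1 lower. Cfi, the factor that cuts C3b and was no member of the list, was not well above background on any 24 h array and was at least 4.37-fold higher (adjusted p = 6.25e-05).

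Neutrophil markers lay lower on average, but few single genes passed the test in the fit to 24 arrays. Of 19 tested, 0 rose and 1 fell, with a median log2 difference of -0.60. Their summed signal was 172 to 261 at 48 h and 260 to 410 at 24 h, and 15 of the 19 had negative differences. S100a8, a calcium-binding protein that neutrophils hold in large amounts, had log2 levels of 4.94, 4.53, 5.31 and 4.19 at 48 h, against 6.03, 5.24, 6.13 and 5.73 at 24 h. The highest 48 h array lay within the range of the 24 h arrays, and the gene was not called (log2 difference -1.04, adjusted p = 0.35, 0.0387 in a fit to these 8 arrays alone). Cxcr2, the receptor that leads neutrophils to chemokines, had log2 levels of 0.75, 0.23, 1.15 and -0.25 at 48 h, against 2.05, 1.44, 2.36 and 1.66 at 24 h. It showed no overlap, with adjusted p = 0.266 over all 24 arrays and 0.023 in the smaller fit, which called 6 of the list lower and 1 higher. The SD of Cxcr2 was 0.61 at 48 h and 0.41 at 24 h, against 2.41 in vehicle infarcts at 168 h, which enter the larger fit. Ltf, a granule protein, was the member called, not well above background on any 48 h array and at least 1.91-fold lower (adjusted p = 0.0414). That call was lost without 24 h replicate 3 (log2 difference -1.03, adjusted p = 0.15). Ly6g, the antigen used to sort neutrophils, was not called (log2 difference -0.20, adjusted p = 0.38), and neither was the peroxidase gene Mpo (log2 difference 1.17, adjusted p = 0.0575). Of 7 neutrophil chemokines and receptors limma called 0 in the fit to 24 arrays, where 0 had an unadjusted p under 0.05. The fit to these 8 arrays alone called 1 lower and 0 higher. Cxcl2, one of these ligands, had mean log2 levels of -2.21 ± 0.27 at 48 h and -2.20 ± 0.60 at 24 h (adjusted p = 0.992).

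Monocyte markers were called at shares near those of all genes (11.6% higher and 11.1% lower), with 2 of 15 higher and 2 lower. The counts were 1 higher and 1 lower without 24 h replicate 3, and 1 higher and 4 lower in a fit to these 8 arrays alone. Ccr2, the receptor that brings inflammatory monocytes into tissue, was 1.44-fold lower (adjusted p = 0.02), while Ly6c2, their surface antigen, was not called (log2 difference -0.074, adjusted p = 0.722). Cx3cr1, the receptor of patrolling monocytes and many tissue macrophages, was 1.86-fold higher (adjusted p = 0.0208), and Ms4a4c, a membrane protein gene of monocytes, was 1.27-fold higher (adjusted p = 0.0142). Neither Ccr2 (log2 difference -0.49, adjusted p = 0.0618) nor Cx3cr1 (log2 difference 0.67, adjusted p = 0.0965) was called without 24 h replicate 3, and Ms4a4c was not called in the fit to 8 arrays (adjusted p = 0.119).

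Among cytokines of the interleukin 1, interleukin 6 and TNF families, 5 of 15 rose and 2 fell. Of all genes 11.6% rose and 11.1% fell, the second near the share of the list. Il6, a driver of the acute-phase response, had log2 levels of 2.89, 2.94, 2.92 and 2.62 at 48 h, against 1.17, 1.02, 1.65 and 1.11 at 24 h. The separation was wide, with Il6 3.05-fold higher at 48 h (log2 difference 1.61, SE 0.34, adjusted p = 0.00226), and within the 3 shared slides its log2 differences were 1.90, 1.27 and 1.51. Lif, of the same family, was 2.02-fold higher (adjusted p = 0.0423), though its call was lost under 11 of 19 alternatives, among them the one without 24 h replicate 3. Il33, an alarmin stored in nuclei of stromal cells, was 2.77-fold higher (adjusted p = 4.87e-04), and Il18, which inflammasomes activate, was 1.85-fold higher (adjusted p = 8.12e-04). Il1b, which opens the inflammatory response, was not called (log2 difference 0.15, adjusted p = 0.836). The members that fell were Csf1 and Tnfsf14. Csf1, a growth factor of macrophages, was 1.40-fold lower (adjusted p = 0.00533), but its call was lost with the mean of its 3 probes (adjusted p = 0.702). Tnfsf14 was 1.79-fold lower (adjusted p = 0.0189) and was not called without 24 h replicate 3 (log2 difference -0.65, adjusted p = 0.0865).

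Chemokines for monocytes and lymphocytes rose in 8 of 24 cases and fell in 2 (7 higher and 1 lower without 24 h replicate 3). Of all genes 11.6% rose and 11.1% fell. Ccl8 had log2 levels of 2.90, 2.35, 2.27 and 2.25 at 48 h, against 0.24, 0.64, 0.015 and 0.66 at 24 h and was 4.15-fold higher at 48 h (log2 difference 2.05, SE 0.31, adjusted p = 1.34e-04). Ccl12, another chemokine of the list, was 2.00-fold higher (adjusted p = 0.00131). Cxcl10, a ligand for receptors of activated T cells and a target of interferon, was 2.88-fold higher (adjusted p = 9.60e-04). Ccl2, the main ligand of Ccr2, stood high in both groups at mean log2 levels of 6.46 ± 0.24 at 48 h and 6.08 ± 0.085 at 24 h and was not called (adjusted p = 0.381). Ccl17, which attracts T cells through Ccr4, was 4.62-fold lower (adjusted p = 0.00243). Interferon-stimulated genes lay on the same side as Cxcl10: 21 of 22 had positive differences (median 0.43), but only 3 passed the test. Isg15, a ubiquitin-like protein, was 1.65-fold higher (adjusted p = 0.0235) and Ifit3, a protein of viral defence, was 1.69-fold higher (adjusted p = 0.0352). None of the 22 was called without 24 h replicate 3 (adjusted p = 0.0766 for Isg15 and 0.114 for Ifit3).

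Leukocyte adhesion genes gave 2 of 16 higher and 3 lower, near the 11.6% and 11.1% of all genes. Vcam1, an endothelial and stromal ligand for leukocyte integrins, was 1.83-fold higher (adjusted p = 8.48e-04). Selplg, the leukocyte ligand of selectins, was 1.66-fold lower (adjusted p = 0.00142), and the selectin gene Selp was 1.66-fold lower (adjusted p = 0.0461), a call that was lost without 24 h replicate 3 (log2 difference -0.62, adjusted p = 0.146). Few lymphocyte and dendritic cell markers passed the test. T and NK cell markers gave 1 of 15 higher and 1 lower, B cell markers 1 of 8 each way, and the list of dendritic cells and class II antigen presentation 0 of 16 higher and 1 lower. Their median log2 differences were -0.25, -0.52 and -0.25, with 9, 6 and 13 negative differences. The mean log2 level of the dendritic cell list was 0.31, 0.39, 0.30 and 0.37 on the 48 h arrays, against 0.47, 0.72, 0.58 and 0.57 on the 24 h arrays, without overlap. The T and NK cell counts were 0 higher and 1 lower without 24 h replicate 3, and 1 higher and 3 lower in a fit to these 8 arrays alone. The B cell counts were 1 higher and 0 lower without 24 h replicate 3, and 1 higher and 3 lower in a fit to these 8 arrays alone, and the dendritic cell counts 0 higher and 0 lower without 24 h replicate 3, and 0 higher and 4 lower in a fit to these 8 arrays alone. The summed signals were 2.92 to 3.47 at 48 h and 3.18 to 3.72 at 24 h for T and NK cells, and 1.28 to 1.39 at 48 h and 1.55 to 2.13 at 24 h for B cells. Zap70, a kinase of the T cell receptor, was 1.68-fold lower (adjusted p = 0.0331), whereas Gzma, a granzyme of cytotoxic cells, was 1.57-fold higher (adjusted p = 0.0318). Of the B cell genes, Pax5, a transcription factor, was 1.59-fold higher (adjusted p = 0.0126). Zbtb46, a dendritic cell transcription factor, was 1.39-fold lower (adjusted p = 0.0312). The calls of Gzma and Zbtb46 were lost without 24 h replicate 3, and that of Zap70 was lost under 10 of 20 alternatives. Eosinophil, basophil and mast cell markers were called lower in 2 of 8 cases: Ear1 and Ear2, ribonucleases of eosinophils, were 2.38-fold lower (adjusted p = 0.00841) and 2.27-fold lower (adjusted p = 0.00289). The sequences of these 2 genes are close, so that their probes may share signal.

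**Figure D4:**
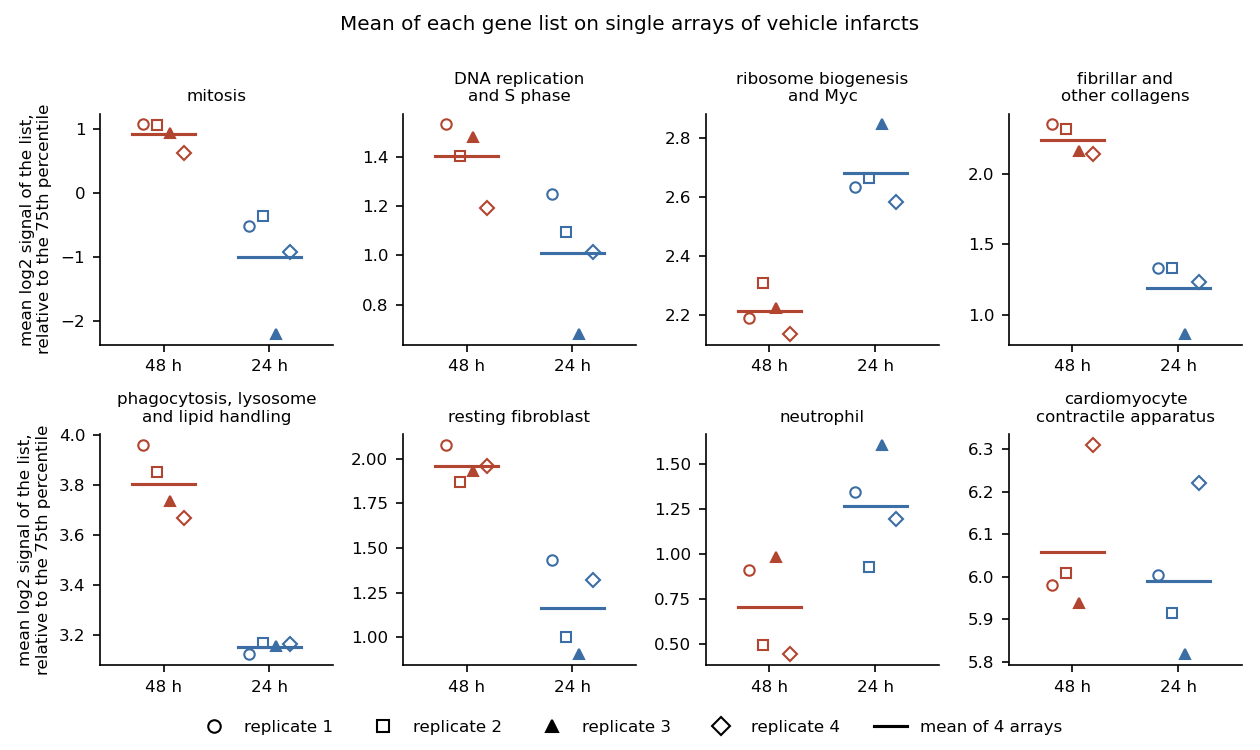
Mean log2 level of 8 gene lists on single arrays (vertical axes, relative to the array's 75th percentile) at 48 h (left, red) and 24 h (right, blue), with replicate 3 as filled triangles and bars for means of 4 arrays. The groups do not overlap for mitosis, ribosome biogenesis, collagens, the phagocytosis list and resting fibroblasts, and overlap for replication, neutrophil and cardiomyocyte genes. Replicate 3 is the lowest 24 h array for mitosis, replication, collagens, resting fibroblasts and cardiomyocytes and the highest for ribosome biogenesis and neutrophils.

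Cardiomyocyte genes showed no common direction. The 20 contractile genes had a mean log2 level of 6.06 ± 0.17 at 48 h and 5.99 ± 0.17 at 24 h (SD, n = 4 each), all were well above background in both groups, and 4 rose and 1 fell (2 higher and 1 lower without 24 h replicate 3, and 2 higher and 1 lower in a fit to these 8 arrays alone). Myh6, the main myosin of the adult mouse ventricle, had log2 levels of 7.83, 7.81, 8.20 and 8.32 at 48 h, against 8.02, 7.81, 7.83 and 8.34 at 24 h. These overlapped and Myh6 was not called (adjusted p = 0.894). Mybpc3, which regulates that myosin, was 1.63-fold higher (adjusted p = 5.15e-04). Csrp3, a stretch sensor of the Z-disc, was 1.99-fold lower at 48 h (log2 difference -0.99, SE 0.11, adjusted p = 8.00e-06). In a separate list of stretch-responsive and fetal genes, which does not hold Csrp3, 6 of 17 fell and 1 rose. The counts were 0 higher and 5 lower without 24 h replicate 3, and 2 higher and 4 lower in the fit to 8 arrays. Flnc, a filamin that repairs strained sarcomeres, had log2 levels of 5.17, 5.55, 5.69 and 5.48 at 48 h, against 6.93, 7.01, 7.28 and 6.73 at 24 h. It was 2.85-fold lower at 48 h (log2 difference -1.51, SE 0.20, adjusted p = 4.49e-05), the largest fall in that list. Xirp2, an actin-binding protein of the intercalated disc, was 2.57-fold lower (adjusted p = 0.00124) and Fhl1 was 2.22-fold lower (adjusted p = 1.97e-04). The natriuretic peptide genes Nppa and Nppb were not called (log2 differences -0.02 and -0.21, adjusted p = 0.918 and 0.415), nor was the fetal myosin Myh7 (log2 difference 0.54, adjusted p = 0.338). Outside these lists, Ankrd2, a stress-responsive ankyrin repeat protein of muscle, was 6.42-fold lower (adjusted p = 4.30e-05) and Klhl40, which stabilises thin filaments, was 3.93-fold lower (adjusted p = 5.06e-06).

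Calcium handling and ion channel genes rose in 8 of 22 cases and fell in 1, with a median log2 difference of 0.29. Of all genes 11.6% rose and 11.1% fell. Kcnd2 and Kcnip2, the channel and its partner that carry the transient outward current, were 2.55-fold higher (adjusted p = 0.00597) and 2.02-fold higher (adjusted p = 0.0217). Kcnq1, of the delayed rectifier, was 1.79-fold higher (adjusted p = 0.00292), and Pln, which restrains the pump that returns calcium to the sarcoplasmic reticulum, was 1.74-fold higher (adjusted p = 0.0267). Without 24 h replicate 3, 2 of the list were called higher and 1 lower, and Kcnip2 and Pln were not called (adjusted p = 0.0602 and 0.095). The fit to 8 arrays called 4 higher and 1 lower.

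Few genes of energy metabolism passed the test. Of 28 genes for the respiratory chain and the citric acid cycle, limma called 0 in the fit to 24 arrays (3 had an unadjusted p under 0.05), and the fit to these 8 arrays alone called 1 lower. That gene was Cox7a1, a heart and muscle subunit of cytochrome oxidase (log2 difference -0.34, adjusted p = 0.0984 in the fit to 24 arrays, 0.0279 in the smaller fit). Fatty acid genes gave 1 of 25 higher and 1 lower, against 11.6% and 11.1% of all genes. Pdk4, which spares glucose by blocking pyruvate dehydrogenase, was 2.42-fold lower (adjusted p = 0.00953), and Cpt1b, the gate for fatty acids into mitochondria, was 1.53-fold higher (adjusted p = 0.023), a call lost without 24 h replicate 3 (log2 difference 0.52, adjusted p = 0.0885). Glycolysis and hypoxia genes likewise gave 1 of 24 each way: Hif1a, the oxygen-regulated transcription factor, was 1.31-fold higher (adjusted p = 0.00419), and the glucose transporter gene Slc2a1 was 1.27-fold lower (adjusted p = 0.0339), not called without that array (log2 difference -0.33, adjusted p = 0.0784). Vegfa, a target of hypoxia and a growth factor of vessels, was not called (log2 difference 0.13, adjusted p = 0.753).

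Heat shock chaperones, which refold damaged proteins, were lower in 5 of 15 cases and higher in 0. Hspa1a, an inducible chaperone, had log2 levels of 0.88, 1.24, 1.08 and 1.80 at 48 h, against 3.08, 2.40, 3.47 and 2.67 at 24 h. The groups were separated, and Hspa1a was 3.15-fold lower at 48 h (log2 difference -1.66, SE 0.26, adjusted p = 1.78e-04). Its near-identical copy Hspa1b was 1.94-fold lower (adjusted p = 0.00477), and probes for these genes may share signal. The small heat shock protein Hspb1 was 1.38-fold lower (adjusted p = 0.00416). Of genes of endoplasmic reticulum stress, 3 of 21 were called lower and 0 higher, near the 11.1% of all genes that were lower, and 1 was called lower without 24 h replicate 3. Those called included the cochaperone Dnajb9 (1.67-fold lower, adjusted p = 0.00221) and Creld2, a secreted stress marker (1.72-fold lower, adjusted p = 0.0317), the second of which was not called without 24 h replicate 3 (log2 difference -0.77, adjusted p = 0.0735). Outside the list Derl3, which helps to clear misfolded proteins, was 7.49-fold lower (adjusted p = 0.0019).

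Antioxidant, heme and iron genes went both ways, with 4 of 23 higher and 6 lower, against 11.6% and 11.1% of all genes. Hmox1, which breaks down heme, had log2 levels of 6.08, 5.79, 6.09 and 5.85 at 48 h, against 5.17, 5.09, 5.10 and 4.92 at 24 h and was 1.85-fold higher at 48 h (log2 difference 0.88, SE 0.18, adjusted p = 0.00151). The extracellular superoxide dismutase gene Sod3 was 2.15-fold higher (adjusted p = 6.74e-05) and the quinone reductase gene Nqo1 was 1.86-fold higher (adjusted p = 0.00425). The metallothionein gene Mt2 was 1.53-fold lower (adjusted p = 0.00127). Of 18 immediate early genes 0 rose and 3 fell, against 11.6% and 11.1% of all genes. Fosl1, an AP-1 subunit, had the largest fall of the 3 (2.61-fold lower, adjusted p = 0.00345). Of 24 cell death regulators limma called 0 in the fit to 24 arrays (3 had an unadjusted p under 0.05), where the smallest p-values belonged to Casp1, a caspase of inflammasomes (log2 difference 0.48, adjusted p = 0.0635), and the survival gene Bcl2l1 (log2 difference -0.44, adjusted p = 0.116). The fit to these 8 arrays alone called 2 of them higher and 1 lower.

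Of 20 endothelial markers 8 fell slightly and 0 rose, and 19 of the 20 had negative differences (median -0.26). Their mean log2 level was 2.27 ± 0.075 at 48 h and 2.54 ± 0.076 at 24 h (SD, n = 4 each). Emcn, a sialomucin of capillaries and veins, was 1.37-fold lower (adjusted p = 0.00709), Cldn5, of tight junctions, 1.37-fold lower (adjusted p = 0.0336), and the nitric oxide synthase gene Nos3 1.32-fold lower (adjusted p = 0.0151). Without 24 h replicate 3, 2 of the 20 were called, with a median log2 difference of -0.25, and Nos3 was not among them (log2 difference -0.38, adjusted p = 0.0503). The fit to these 8 arrays alone called 4, without Emcn (adjusted p = 0.0546) and Cldn5 (adjusted p = 0.074), and the call of Cldn5 was lost under 8 of 20 alternatives. Smooth muscle and pericyte genes gave 2 of 14 higher and 3 lower, against 11.6% and 11.1% of all genes. The lower ones included Myocd, a coactivator of smooth muscle genes (1.51-fold lower, adjusted p = 6.08e-04). The counts were 0 higher and 3 lower without 24 h replicate 3, and 1 higher and 2 lower in a fit to these 8 arrays alone.

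Growth factor genes rose in 7 of 29 cases and fell in 3, the second near the 11.1% of all genes, with 6 higher and 1 lower without 24 h replicate 3. Ptn, or pleiotrophin, had log2 levels of -0.24, 0.078, -0.17 and -0.62 at 48 h, against -3.09, -2.90, -4.75 and -3.12 at 24 h, and it was well above background on 3 of the 24 h arrays. It was 9.36-fold higher at 48 h (log2 difference 3.23, SE 0.36, adjusted p = 7.98e-06). Igf1, the gene of the hormone given to the other mice of the series, had log2 levels of 2.00, 1.93, 1.63 and 1.52 at 48 h, against 1.06, 1.02, 0.44 and 0.74 at 24 h. These are levels in mice that received vehicle only, and they were separated, with Igf1 1.94-fold higher at 48 h (log2 difference 0.96, SE 0.16, adjusted p = 3.12e-04). Its binding protein genes parted: Igfbp5 was 2.73-fold higher (adjusted p = 0.00102) and Igfbp3 was 2.15-fold lower (adjusted p = 0.00117). Vegfd, a growth factor of lymph vessels, was 2.36-fold higher (adjusted p = 8.53e-04).

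Markers of other sources in the sample were checked. Platelet and megakaryocyte genes rose in 4 of 9 cases, against 11.6% of all genes. Among them were Treml1, a receptor of platelet granules (2.24-fold higher, adjusted p = 0.0261), and Itga2b, the integrin chain of platelets (2.03-fold higher, adjusted p = 0.0363). The call of Itga2b was lost under 10 of 20 alternatives and that of Treml1 under 4. Their summed signal was 75.2 to 92.7 at 48 h and 67.6 to 78.7 at 24 h. Red blood cell, skeletal muscle, epicardial and lung lists gave 0 called members, of 8, 5, 7 and 2 tested. The summed signal of red blood cell genes was 223 to 312 at 48 h and 141 to 288 at 24 h. Adipocyte genes gave 1 of 5 lower (Lep, the gene of leptin, 1.23-fold lower, adjusted p = 0.0194), and nerve and glia genes 2 of 7 higher and 1 lower, with S100b 2.11-fold higher (adjusted p = 0.00377) and the myelin gene Mbp 1.61-fold lower (adjusted p = 0.00384). Atrial markers gave 2 of 5 higher, one of which was Dkk3, also a member of the fibroblast list. The nerve and atrial lists each had 1 member higher without 24 h replicate 3. The part of blood or of neighbouring tissue in the results above was not tested. Serine protease inhibitors of the Serpina family rose in 4 of 8 cases and fell in 0, against 11.6% and 11.1% of all genes. Those called were Serpina3f (5.11-fold higher, adjusted p = 8.59e-05), Serpina3i (3.36-fold, adjusted p = 0.00229), Serpina3h (2.12-fold, adjusted p = 2.63e-04) and Serpina3n (1.84-fold, adjusted p = 0.0322). These are neighbouring copies of similar sequence whose probes may share signal, and Serpina3n was not called without 24 h replicate 3 (log2 difference 0.84, adjusted p = 0.0825).

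The genes with the widest differences were named by rule, as the 15 higher and 15 lower called genes with the largest fitted differences and no overlap between groups. Of those not yet described, Ecrg4, which encodes a secreted peptide precursor, had log2 levels of -2.90, -3.04, -2.83 and -3.71 at 48 h, against -6.43, -6.13, -6.94 and -6.96 at 24 h. It was well above background on all 48 h arrays and on 0 of the 24 h arrays, and so was at least 4.35-fold higher (adjusted p = 1.35e-05). A like pattern held for the membrane serine protease Tmprss13, at least 6.87-fold higher (adjusted p = 3.98e-05), and Fbxl13, at least 4.29-fold higher (adjusted p = 1.73e-05). Cdh3, or P-cadherin, was detected on 3 of 4 arrays at 48 h and 0 at 24 h (at least 2.10-fold higher, adjusted p = 4.43e-05). Olfr69, an olfactory receptor gene, was detected likewise (at least 2.75-fold higher, adjusted p = 0.0281), and its call was lost without 24 h replicate 3 (log2 difference 3.19, adjusted p = 0.0646). Fndc1, a fibronectin domain protein, was 6.69-fold higher (adjusted p = 6.36e-06).

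Among the falling genes Hamp, which encodes the iron hormone hepcidin, had log2 levels of -6.71, -6.54, -6.48 and -4.28 at 48 h, against -1.90, -4.11, -2.21 and -3.79 at 24 h. One 48 h array, replicate 4, lay well above the other 3, and it was the only 48 h array on which Hamp was well above background, against all 4 at 24 h. The gene was 7.99-fold lower (adjusted p = 0.00213). Tmem125, a membrane protein gene detected on 0 arrays at 48 h and 4 at 24 h, was at least 5.68-fold lower (adjusted p = 1.39e-04). Also undetected at 48 h were Calca, the gene of calcitonin and its related peptide (at least 3.35-fold lower, adjusted p = 0.00292), Ceacam10 (at least 3.20-fold lower, adjusted p = 0.00151) and Mmp25, a leukocyte metalloproteinase (at least 2.01-fold lower, adjusted p = 6.43e-04, detected on 2 arrays at 24 h). Slco4a1, an organic anion transporter, was 5.70-fold lower (adjusted p = 1.64e-05) and well above background on all 8 arrays. The remaining genes of the rule were Lce1f (5.97-fold lower, adjusted p = 4.14e-04), Usp53 (4.12-fold lower, adjusted p = 8.46e-05), Shisal1 (4.05-fold lower, adjusted p = 6.68e-04), Ankrd22 (3.74-fold lower, adjusted p = 6.86e-04) and Rnf39 (3.59-fold lower, adjusted p = 0.00178). Lce1f and Rnf39 were well above background on 1 array at 48 h, and Shisal1 on 2.

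Whether a gene moved differently in vehicle infarcts and in IGF1-treated infarcts was tested by the difference of the courses, which is 48 h minus 24 h in vehicle minus the same in IGF1 infarcts. It called 11 genes (0.0693% of those tested), 9 with a more positive course in vehicle and 2 with a more negative one, while 2774 genes had an unadjusted p under 0.05. None of the list members was among the 11 in that fit. Tacc2, which binds microtubules at the spindle and is expressed in muscle, gave the smallest p (log2 difference -0.15 in vehicle and -1.89 in IGF1 infarcts, difference of courses 1.75, SE 0.24, adjusted p = 0.00734). Spns3, a transporter gene, moved the other way (log2 difference -0.52 in vehicle and 1.67 in IGF1 infarcts, difference of courses -2.19, SE 0.34, adjusted p = 0.0158), and it was well above background on 1 array at 48 h and 2 at 24 h. Ncapg2, a condensin subunit for the packing of mitotic chromosomes, rose by less in vehicle infarcts (log2 difference 0.57 in vehicle and 1.66 in IGF1 infarcts, difference of courses -1.09, SE 0.19, adjusted p = 0.041). The calcium sensor S100a1 of cardiomyocytes was not called in the vehicle course itself (log2 difference 0.0037 in vehicle and -0.84 in IGF1 infarcts, difference of courses 0.83, SE 0.15, adjusted p = 0.0444). Likewise not called there were the kinase gene Camk2b and the phosphatase gene Ptp4a1, with log2 differences of -0.043 and -0.14 in vehicle against -0.80 and -0.66 in IGF1 infarcts. Also called were Tsacc, a cochaperone gene, and Gm17745, which has no known role here. Il6 did not pass this test (difference of courses 2.25, SE 0.48, adjusted p = 0.0676). Without vehicle 24 h replicate 3, 1 of the 15 tested genes of its cytokine list was called with a more positive course in vehicle.

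For the mitosis list this comparison depended on 24 h replicate 3. Its median log2 difference was 1.92 in vehicle infarcts and 3.14 in IGF1 infarcts, and 0 of 25 genes were called in the difference of courses, where the smallest adjusted p of the list was 0.068. Without 24 h replicate 3, the vehicle array with the lowest levels of these genes, 232 genes were called, 55 with a more positive and 177 with a more negative course in vehicle. Among the 177 were 23 of the 25 mitosis genes and 10 of the 23 replication genes. Leaving out the lowest 24 h array makes the vehicle rise of the mitosis genes smaller in any case. The count of 11 genes also moved without other arrays, to 159 without vehicle 48 h replicate 3. Of the 27 alternatives, between 11 and 25 called each of the 11 genes, and 0 turned a sign.

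The levels at 168 h are set beside the early ones as a description, since the 168 h arrays lie mostly on a slide without 48 h arrays. The peak at 48 h was seen in Ccnb2, at mean log2 levels of -0.77 ± 0.83 at 24 h, 2.11 ± 0.32 at 48 h and 0.69 ± 0.32 at 168 h (SD, n = 4 each). Il6 stood at 1.24 ± 0.28 at 24 h, 2.84 ± 0.15 at 48 h and -0.67 ± 0.44 at 168 h, and Hmox1 at 5.07 ± 0.10 at 24 h, 5.95 ± 0.15 at 48 h and 2.27 ± 0.30 at 168 h. Both were lower at 168 h than at 24 h. Gpnmb stood at -1.72 ± 0.37 at 24 h, 1.03 ± 0.26 at 48 h and 0.68 ± 0.25 at 168 h. Matrix genes continued upwards: Col1a1 stood at 4.17 ± 0.30 at 24 h, 6.01 ± 0.19 at 48 h and 7.08 ± 0.14 at 168 h, and Sfrp2 at -1.60 ± 0.67 at 24 h, 1.67 ± 0.49 at 48 h and 5.27 ± 0.50 at 168 h. Comp, at -2.91 ± 0.57 at 24 h, -0.19 ± 0.45 at 48 h and 5.69 ± 0.82 at 168 h, and Ecrg4, at -6.61 ± 0.41 at 24 h, -3.12 ± 0.40 at 48 h and 2.91 ± 0.61 at 168 h, differed more between 48 and 168 h than between 24 and 48 h. Neutrophil genes as a list had a mean log2 level of 1.27 at 24 h, 0.71 at 48 h and -2.28 at 168 h, so that most of the fall lay after 48 h.

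**Figure D5:**
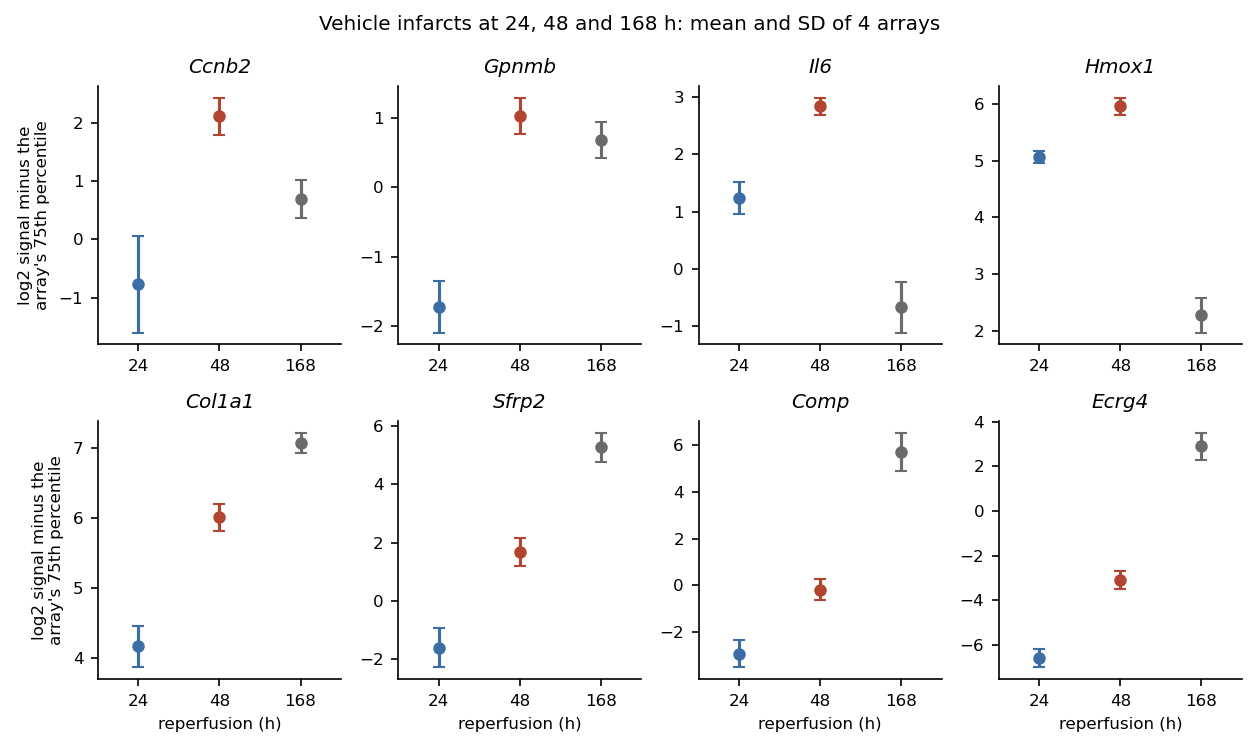
Mean log2 level (vertical axes, relative to the array's 75th percentile) of 8 genes in vehicle infarcts at 24, 48 and 168 h of reperfusion, with SD over 4 arrays as error bars and the times evenly spaced. Ccnb2, Gpnmb, Il6 and Hmox1 are highest at 48 h, while Col1a1, Sfrp2, Comp and Ecrg4 are highest at 168 h.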

How the data were processed

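Total RNA of infarct tissue was measured on 24 one-colour (Cy3) arrays, 4 in each of 6 groups, of which the 4 vehicle arrays at 48 h and the 4 at 24 h are compared here. The deposited scanner output came, per the file headers, from Feature Extraction 12.0.3.2, and its processed signal is an intensity on a linear scale, corrected for background within the array and not scaled between arrays. Log2 values fill the table that the authors deposited. After centring each probe they equal those computed here (residual SD at most 0.0154), and the table served as an alternative. Which arrays the centring used is not given in the sources used here.

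Control spots and outlier spots (53 to 120 of the 59305 spots of each of the 8 arrays) were left out, and 0 spots were saturated. Log2 processed signal minus the array's 75th percentile (534 to 819 before log2) was the measure. Probes had to be well above background on 4 or more of the 24 arrays, and each gene was read from its brightest such probe. Accessions were matched without versions to the table of RefSeq mouse genes: of 56605 probes, 33767 (59.7%) had 1 symbol, 22838 none and 0 several. Of the 15875 genes tested, 24 lacked a value on an array, and 5925 had several kept probes. The number of arrays limits the precision.

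Limma 3.58.1 in R 4.3.3 was fitted with 1 mean per group over all 24 arrays (18 residual degrees of freedom), followed by eBayes and two-sided tests with Benjamini-Hochberg adjustment over all genes and a threshold of 0.05. SE is the standard error of a log2 difference in this fit. The fit was tested on simulated data of this design. A gene well above background on 0 arrays of a group has only a bound, "at least N-fold": the mean of the brighter group over that of the dimmer one, in which each array enters with its weakest signal of any probe well above background, or with the signal of the probe itself if that is higher. Where only some arrays detected a gene, their number is given or the fitted fold stands.

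The 47 gene lists (19 of cell types, 28 of processes; 775 of 829 genes tested), the comparison and the tests were chosen with earlier results of these data known. They are described by counts and medians, without a test of the list. Genes were named by a rule: the 15 higher and 15 lower called genes with the largest differences and no overlap between groups, leaving out clone and predicted names; per list, at most 6 called members in order of p, or the 2 lowest p-values where fewer than 2 were called; the 10 smallest p-values in the difference of courses; and 28 genes named whatever their values. The text gives part of these, and some are not reported here. Outside the rule, Camk2b, Ccl24, Ccn1, Ccnb1, Cdk1, Col4a2, Foxm1, Mcm2, Myc, Pcna, Plk1 and Ube2c were chosen after their values were seen, as were the promoters and motifs shown. Same-numbered arrays of both groups correlated at 0.0527 to 0.382 in their deviations from the group means, not all above 0.1, so the numbers were not taken to pair the samples. Alternatives were normexp with an offset of 50, other scalings, filters, probes and arrays in the fit, array weights, the slide or the replicate number as a block, the authors' table, and each array left out.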

Additional observations from a re-analysis of the deposited data

Results flagged for a closer look

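A level on 1 array was set apart from the other 3 of its group by a gap above Dixon's 95% critical value for 4 samples, relative to the whole range of the group, in 25 of 506 groups checked (4.94%), where chance flags about 1 in 20 groups. Of these, 12 were 24 h replicate 3. Vehicle 48 h replicate 1 was the highest of its group in the log2 level of Ccl8 (2.90, the others 2.25 to 2.35), Gpnmb (1.42, the others 0.88 to 0.92), Sod3 (4.35, the others 3.98 to 4.02) and Thbs2 (-0.25, the others -0.64 to -0.59). Vehicle 48 h replicate 1 was the lowest of its group in the log2 level of Fhl1 (5.31, the others 5.86 to 5.96) and Pdk4 (1.53, the others 2.34 to 2.50). Vehicle 48 h replicate 4 was the highest of its group in the log2 level of Hamp (-4.28, the others -6.71 to -6.48). Vehicle 48 h replicate 4 was the lowest of its group in the log2 level of Adgre1 (2.78, the others 3.14 to 3.16), Il6 (2.62, the others 2.89 to 2.94), Mki67 (2.76, the others 3.17 to 3.26) and Stab1 (4.17, the others 4.46 to 4.51). Vehicle 24 h replicate 2 was the highest of its group in the log2 level of Fhl1 (7.06, the others 6.87 to 6.89). Vehicle 24 h replicate 3 was the highest of its group in the log2 level of Ltf (-3.09, the others -4.20 to -4.09) and Tmem125 (-1.24, the others -2.83 to -2.58). Vehicle 24 h replicate 3 was the lowest of its group in the log2 level of Col1a2 (5.26, the others 5.91 to 6.01), Col3a1 (4.41, the others 5.03 to 5.08), Col5a1 (2.95, the others 3.35 to 3.43), Dkk3 (-3.20, the others -2.02 to -1.89), Fbxl13 (-7.08, the others -5.67 to -5.43), Folr2 (0.40, the others 0.84 to 0.90), Foxm1 (-2.33, the others -0.89 to -0.63), Ncapg2 (-1.07, the others -0.56 to -0.47), Ptn (-4.75, the others -3.12 to -2.90) and Sfrp1 (-4.30, the others -2.87 to -2.65). The mean log2 level of the B cell list on 24 h replicate 1 was -2.55, above the others at -2.82 to -2.80.

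The courses of vehicle and IGF1 infarcts differed by limma's test of the difference itself in 11 genes. Among them the difference, vehicle course minus IGF1 course in log2 units, was positive for Tacc2 (1.75), Ptp4a1 (0.52), Tsacc (0.72), S100a1 (0.83), Gm17745 (1.22) and Camk2b (0.76), and negative for Spns3 (-2.19) and Ncapg2 (-1.09).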

How the results depend on the processing

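For the 3611 genes called between 48 h and 24 h, the alternatives gave 2825 with normexp background correction, 3541 with quantile normalisation, 3645 with scaling to the median of detected probes, 2840 without a filter on dim probes, 3575 with probes detected on at least 12 arrays, 3443 with the mean of a gene's probes, 2478 in the fit to the 8 arrays alone, 2726 in the fit to the 12 vehicle arrays, 4190 with array weights, 4351 with the slide as a block and 3611 in the authors' table. Leaving out 1 array gave 2267 to 3389, the lowest without 24 h replicate 3, the one setting that moved the count by more than 1.5 times. The called list members, 276 in all, numbered 232 to 313 under the alternatives and 202 to 257 with 1 array left out.

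With a replicate block in the fit of the 8 vehicle arrays, 2939 genes and 312 list members were called. All 4 arrays of each time correlated best with their own number in the other group. The labels state no pairing. However, the same-numbered arrays of replicates 2, 3 and 4 shared a slide, and those of replicate 1 were scanned on the same day. The part of slide and scan day in these correlations was not tested. The replicate block gave 2 genes in the difference of courses between vehicle and IGF1 infarcts.

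That difference of courses, with 11 genes, depended on most choices: 1 gene was called with normexp, 5 with quantile normalisation, 3 without a filter on dim probes, 317 with array weights, 18 with the slide as a block, and 0 in a limma fit to the 16 arrays of 24 and 48 h, where 2628 genes had an unadjusted p under 0.05. Scaling to the median of detected probes gave 11, probes detected on at least 12 arrays 15, the mean of a gene's probes 10 genes, while 16 came from the authors' table. Leaving out 1 of the 16 arrays gave 2 to 232. Counts above 1.5 times the 11 came without vehicle 24 h replicate 3 (232) and replicate 4 (19), vehicle 48 h replicate 3 (159), and IGF1 24 h replicates 2 (18), 3 (47) and 4 (118). Without vehicle 48 h replicate 2 the count was 9, and without any 1 of the remaining vehicle and IGF1 arrays it was 2 to 7. The cause was not tested.

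For the genes named by the rule or in the text, 5070 log2 differences were recomputed under alternatives: 312 lost their call and 38 gained one. Of genes called in the report's fit 0 changed sign, and 33 values of 12 of the 43 named genes not called did. The fit to the 8 vehicle arrays alone lost the call of 23 named genes. Of 211 called genes, 37 lost the call without 24 h replicate 3. Within the 3 slides that held both groups, 633 values of called genes all kept their sign, while 57.2% of all genes had the same sign within all 3. The called genes were chosen on these same arrays. Where the groups do not overlap, the sign within a slide is fixed in advance. The 4 arrays of a group, and signal over background for dim genes, limit what can be resolved.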

Other observations

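Further members of the gene lists that passed the test in the comparison of 48 h with 24 h add to the groups described above. Among matrix genes, the thrombospondins Thbs2 and Thbs3, which bind collagen and growth factors, were 2.54-fold higher (adjusted p = 5.15e-04) and 2.14-fold higher (adjusted p = 5.01e-05). Col6a2, a chain of the beaded collagen around cells, was 2.14-fold higher (adjusted p = 2.20e-05), and Loxl3, a further crosslinking enzyme, was 2.84-fold higher (adjusted p = 9.18e-05). Serpine2, an inhibitor of thrombin and plasminogen activators, was 1.59-fold higher (adjusted p = 0.00275). Membrane-bound chemokines rose as well: Cx3cl1, the ligand of Cx3cr1, was 1.58-fold higher (adjusted p = 0.0115), and Cxcl16, which also takes up oxidised lipid, was 1.60-fold higher (adjusted p = 0.0014). Clec10a, a lectin of macrophages and dendritic cells, was 1.62-fold higher (adjusted p = 0.00949). Jam2, a junction protein of endothelium, was 1.47-fold higher (adjusted p = 5.65e-04), on the other side of 0 from the 8 endothelial markers that fell. Igfbp4, which binds IGF1, was 1.64-fold higher (adjusted p = 0.0019). Srxn1 and Gclc, antioxidant enzymes, were 1.41-fold lower (adjusted p = 0.00251) and 1.30-fold lower (adjusted p = 0.00324).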
